A study of Mus musculus with 6 samples.

Results

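The genes described here were 41 genes of the endoplasmic reticulum (ER) folding machinery and the integrated stress response, taken by symbol from a named list out of the 16266 genes in the deposited tables. They comprised 13 genes of ER protein folding (the folding arm), 5 sensors of unfolded protein and amino acid shortage, 9 genes of ER-associated degradation, and 14 genes of the ATF4 response to amino acid shortage (the amino acid arm). All 41 were present in the tables and all 41 passed the low-count filter. RNA came from macrophages grown in culture from mouse bone marrow, in 3 wild-type (WT) and 3 Capns1 knockout (KO) libraries. Both groups were kept for 24 h with LPS, the lipopolysaccharide of bacterial outer membranes, so no library gave a level without LPS. The sample titles gave genotype and replicate number. The genotype field read CAPNS1-KO, CAPNS2-KO and CAPNS3-KO for KO replicates 1, 2 and 3, whereas the design text named only capns1. The series title speaks of deletion in myeloid cells, and the Cre driver, the age of the mice and the number of animals were not given in the sources used here. No label says that the 3 replicates of a group came from different mice or dishes, so p-values cover only the variation among these 6 libraries, and that variation may be technical.

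Proteins that enter the ER are folded by chaperones such as BiP and by disulfide isomerases, and those that fail are drawn back out and degraded. Unfolded protein in the ER is sensed by IRE1 (encoded by Ern1), PERK (Eif2ak3) and ATF6. IRE1 splices Xbp1 mRNA, and spliced XBP1 and cleaved ATF6 raise transcription of chaperones. PERK, and GCN2 (Eif2ak4) when amino acids run short, phosphorylate the translation factor eIF2, which lowers general translation while ATF4 protein is made. ATF4 then raises genes of amino acid synthesis and transport. Activated macrophages secrete large amounts of protein through this route. Splicing of Xbp1, phosphorylation and protein levels cannot be read from counts per gene.

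Total counts per library ranged from 32631163 to 40913819. Capns1, the small subunit of the calpain proteases, had 17055, 18934 and 21331 counts in WT replicates 1 to 3 and 335, 370 and 298 counts in KO replicates 1 to 3, so each library carried the level its title called for. Of 12219 genes tested with edgeR's quasi-likelihood test, 8.44% were called higher in KO and 6.21% lower at a Benjamini-Hochberg adjusted p under 0.05. Every KO library exceeded every WT library in 18.2% of tested genes, and every KO library lay below every WT library in 15.5%. WT replicate 3 (-23.2) and KO replicate 2 (25.5) lay farthest apart on principal component 2, with 15.9% of the variance. Summed CPM (counts scaled to a library total of 1000000) of the 8 macrophage markers was 35311 to 42660 in WT and 33629 to 38751 in KO. These sums overlapped between groups. Csf1r (2711 to 3527 CPM in WT, 2247 to 2656 CPM in KO) and Cd14 (761 to 864 CPM and 621 to 666 CPM) were lower in every KO library. The other macrophage markers overlapped. Some sums for other cell types were separate between genotypes. The 5 fibroblast or stroma markers summed to 137 to 172 CPM in WT and 307 to 386 CPM in KO, and the 4 markers of granule-stage precursors to 308 to 405 CPM in WT and 129.7 to 240.4 CPM in KO. The 7 neutrophil markers summed to 514 to 777 CPM in WT and 768 to 945 CPM in KO, and these ranges overlapped. In bulk RNA, fewer cells of a type and less RNA per cell cannot be told apart.

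Promoter sequences are shown first, because the folding genes are known as targets of factors that read short motifs near the start site. RefSeq (GRCm38.p6) gave a window from 250 bases before to 50 bases after the start for 36 of the 41 genes. Manf, Hyou1, Atf6, Derl1 and Slc7a5 had no entry. Both strands were searched for 4 motifs. These were the ER stress element ERSE (CCAAT, then 9 bases of any kind, then CCACG), ERSE-II (ATTGG, 1 base of any kind, then CCACG), the core TGACGTGG of the unfolded protein response element bound by XBP1, and the ATF4 and CEBP element (CARE, TGATGNAA). The 250 bases before the start are printed 5′ to 3′ along the gene for the 4 genes called higher in KO that held a match. Hspa5, which encodes BiP, is printed with them. Capitals mark the first and last 5 bases of an ERSE or ERSE-II match and the whole of a CARE match.
Hspa5 (chr2:34771840-34772089, plus strand): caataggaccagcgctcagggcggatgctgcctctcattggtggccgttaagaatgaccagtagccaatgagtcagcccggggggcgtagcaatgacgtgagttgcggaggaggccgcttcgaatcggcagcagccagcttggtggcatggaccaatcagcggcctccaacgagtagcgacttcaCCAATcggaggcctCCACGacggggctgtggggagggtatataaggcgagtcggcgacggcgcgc
Calr (chr8:84846932-84847181, minus strand): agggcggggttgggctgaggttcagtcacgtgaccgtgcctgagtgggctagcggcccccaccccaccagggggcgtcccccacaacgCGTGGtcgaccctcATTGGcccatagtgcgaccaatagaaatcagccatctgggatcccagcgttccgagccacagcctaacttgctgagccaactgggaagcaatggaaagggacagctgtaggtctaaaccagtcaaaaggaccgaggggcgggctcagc
Creld2 (chr15:88819396-88819645, plus strand): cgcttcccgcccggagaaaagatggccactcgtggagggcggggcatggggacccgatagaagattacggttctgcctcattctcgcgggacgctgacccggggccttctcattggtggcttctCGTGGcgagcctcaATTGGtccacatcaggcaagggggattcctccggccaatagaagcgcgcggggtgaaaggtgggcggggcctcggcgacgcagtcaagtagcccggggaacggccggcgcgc
Herpud1 (chr8:94386179-94386428, plus strand): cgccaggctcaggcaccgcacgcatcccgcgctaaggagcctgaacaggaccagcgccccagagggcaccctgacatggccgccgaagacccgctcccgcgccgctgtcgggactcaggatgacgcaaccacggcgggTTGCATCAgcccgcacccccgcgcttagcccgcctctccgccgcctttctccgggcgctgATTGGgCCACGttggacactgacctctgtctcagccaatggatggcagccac
Asns (chr6:7693210-7693459, minus strand): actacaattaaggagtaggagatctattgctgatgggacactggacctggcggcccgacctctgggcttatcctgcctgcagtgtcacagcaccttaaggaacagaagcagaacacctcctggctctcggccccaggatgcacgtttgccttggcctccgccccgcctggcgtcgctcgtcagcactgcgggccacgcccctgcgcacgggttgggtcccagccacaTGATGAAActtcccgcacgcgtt

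In Hspa5 the ERSE lay 65 to 47 bases before the start, along the gene. In Calr it lay 162 to 144 bases before the start and in Creld2 126 to 108 bases before it, both on the opposite strand, where the capitals read CGTGG and then ATTGG. The Herpud1 window held an ERSE-II 52 to 42 bases before the start and a CARE 112 to 105 bases before it on the opposite strand. The Asns window held a CARE 23 to 16 bases before the start.

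ERSE matches were found in 8 of the 36 genes with a window (22.2%), against 37 of 27025 genes with a RefSeq window (0.137%). The 8 were Hspa5, Calr, Canx, Creld2, Dnajc3 and Pdia6 of the folding arm, and Derl3 and Syvn1 of ER-associated degradation. ERSE-II was found in Herpud1 and Dnajb11 (5.56%, against 0.0444% of all genes). The CARE letters were found in Asns, Chac1, Trib3 and Herpud1 (11.1%, against 4.51%), and the core TGACGTGG in Vcp alone (2.78%, against 0.714%). Of the 13 amino acid genes with a window, 3 held a CARE and none an ERSE. None of the 11 folding genes with a window held a CARE. At shares of 0.137% and 4.51% of all genes, finding none among so few genes would be usual. The Svip windows held none of the 4 motifs. Pdia4, Sdf2l1, Psat1, Phgdh, Shmt2 and Ddit4, called higher in KO and with a window, held none of them either. A match is a description of letters, not a bound site. The folding genes are known targets of factors that read such motifs, so a high share among the listed genes could be foreseen and is no test. Of the 9831 tested genes with a window, 16 held an ERSE, and 8 of these were the listed genes with a match. Among the 16, 4 were called higher in KO and 2 lower, beside 8.44% and 6.21% of all tested genes. Calr and Creld2 were 2 of the 4, and the other 6 listed genes were not called.

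**Figure D1:**
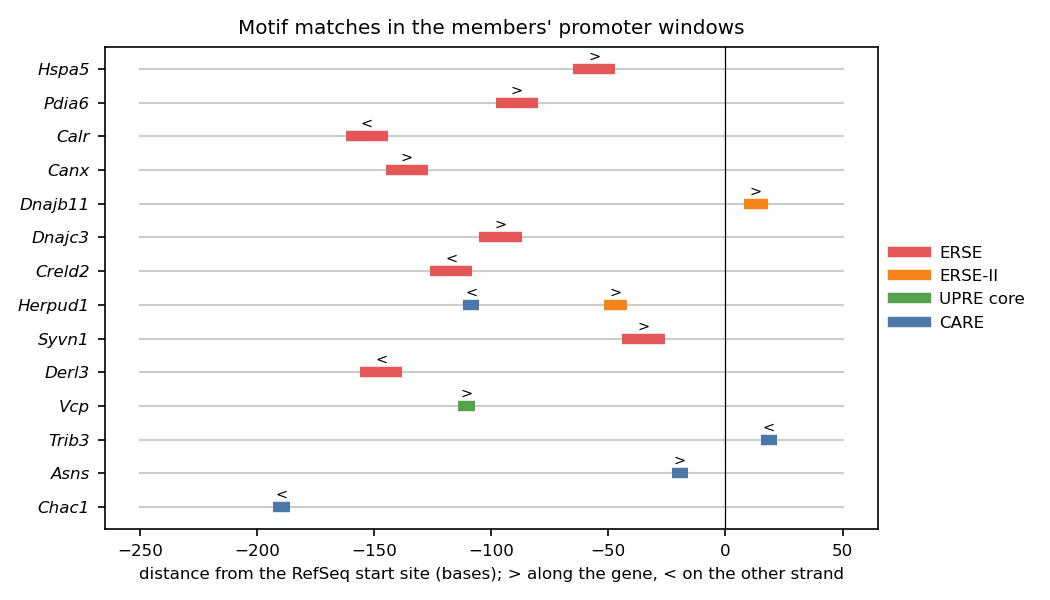
Motif matches in the promoter windows of the 14 listed genes that held any, by distance in bases from the RefSeq start site (vertical line). Bars span each match, coloured by motif, and arrows give the strand. The ERSE bars lie between 162 and 26 bases before the start, and the CARE bars lie on both sides of it.

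Of the 41 genes, 13 were called higher in KO and 1 lower, and 27 were not called, beside 8.44% and 6.21% of all tested genes. Their median log2 fold change (KO minus WT) was 0.25, against -0.011 over all tested genes. In 20 of them every KO library exceeded every WT library (18.2% of all tested genes), and in 3 every KO library lay below every WT library (15.5%). Calls came from the folding arm (6 higher), ER-associated degradation (1 higher, 1 lower) and the amino acid arm (6 higher). None of the 5 sensor genes was called. In an analysis that left out both libraries at the ends of principal component 2 (WT replicate 3, KO replicate 2), 15 of the 41 genes were called higher and 2 lower, beside 13.7% and 12.3% of all tested genes in that analysis.

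**Figure D2:**
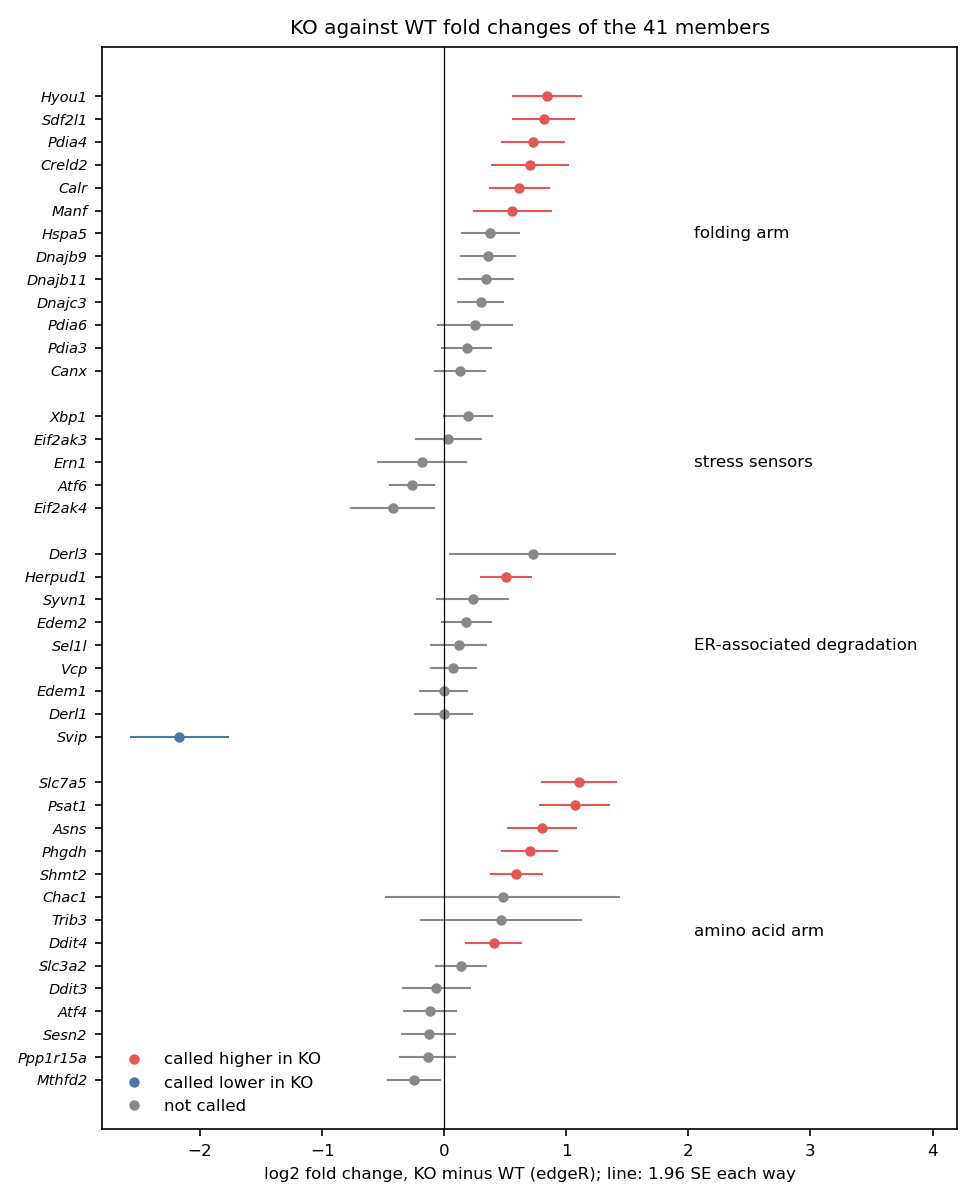
Log2 fold change, KO minus WT, of each of the 41 genes from edgeR, ordered within the 4 groups, with lines of 1.96 standard errors (SE) each way. Red marks genes called higher in KO, blue the gene called lower and grey those not called. All 13 folding genes lie to the right of 0, from Canx at 0.13 to Hyou1 at 0.84, and Svip lies apart at -2.17.

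Of the 13 folding genes, 6 were called, all higher in KO, beside 8.44% of all tested genes. DESeq2, or edgeR with a gene length trend removed, called 10 higher, beside 10.5% and 9.84% of all tested genes. With 1 library left out, 5 to 7 were called higher, beside 5.63% to 8.37% of all tested genes. All 13 had a positive log2 fold change, with a median of 0.38, except that Pdia6 turned to -0.049 without WT replicate 3 and KO replicate 2. In 10 of 13 every KO library exceeded every WT library, beside 18.2% of all tested genes. The 6 called genes were Hyou1, Sdf2l1, Pdia4, Creld2, Calr and Manf, with rises of 1.47-fold to 1.79-fold. The most familiar chaperone of the set, Hspa5, was 1.30-fold higher without passing the threshold.

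Hyou1, on chromosome 9 at 44379490 to 44392369 (GRCm38), encodes a large ER chaperone that exchanges nucleotide on BiP. It had 214, 155 and 205 CPM in WT replicates 1 to 3 and 381, 364 and 300.0 CPM in KO replicates 1 to 3. The groups did not overlap, and WT replicate 2 was the lowest library. The log2 fold change was 0.84 ± 0.14 (SE; edgeR adjusted p = 0.00242). Sdf2l1, part of a chaperone complex with BiP and the ER J-domain protein of Dnajb11, had 224, 187 and 195 CPM in WT and 359.8, 409 and 311 CPM in KO. Each KO library lay above all 3 WT libraries (log2 fold change 0.81 ± 0.13, adjusted p = 0.00144). Pdia4, a disulfide isomerase, had 129, 105 and 125 CPM in WT and 222, 211 and 171 CPM in KO. Its groups did not overlap, with KO replicate 3 the lowest of the KO libraries (0.73 ± 0.13, adjusted p = 0.00313).

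Calr encodes calreticulin, a lectin chaperone that binds glycoproteins and stores calcium. It had 1641, 1316 and 1490.0 CPM in WT and 2388, 2524 and 1990.0 CPM in KO. No KO library fell within the WT range, and the log2 fold change was 0.61 ± 0.12 (adjusted p = 0.00643). Canx, whose product calnexin is the membrane-bound partner of calreticulin, had 272 to 317 CPM in WT and 309.7 to 349 CPM in KO. Its groups overlapped and it was not called (0.13 ± 0.10, adjusted p = 0.463).

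Creld2 encodes a secreted ER protein known to be induced by ER stress. It had 39.4, 32.8 and 32.2 CPM in WT and 53.7, 70.9 and 47.4 CPM in KO. KO replicate 2 was the highest library, and the groups did not overlap (0.70 ± 0.16, adjusted p = 0.0119). With KO replicate 2 and WT replicate 3 both left out, the value was 0.45 and the gene was still called. Manf, a secreted ER protein that binds BiP, had 178, 157 and 139.9 CPM in WT and 222, 294 and 190.0 CPM in KO. The groups were separate by a small margin, and KO replicate 2 was again the highest (0.56 ± 0.16, adjusted p = 0.0386). Without KO replicate 2 the log2 fold change of Manf was 0.35 and it was no longer called (adjusted p = 0.0813). It also lost the call when any 1 of WT replicates 1, 2 and 3 or KO replicate 1 was left out (adjusted p up to 0.0995, and 0.00511 to 0.127 over all 18 alternatives). Of the Manf exon bases, 7.31% overlap other genes (Rbm15b and 4930524O07Rik).

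Hspa5 encodes BiP, the main ER chaperone of the heat shock 70 family and the protein that holds the sensors inactive. It had 688, 615 and 602 CPM in WT and 846, 944 and 719.6 CPM in KO. The groups did not overlap, and the difference did not pass the threshold (0.38 ± 0.12, adjusted p = 0.0564). Dnajb9, a BiP co-chaperone known as an XBP1 target, had 23.4, 25.7 and 23.6 CPM in WT and 29.6, 34.3 and 30.6 CPM in KO, also without overlap (0.36 ± 0.11, adjusted p = 0.0549). Of its 32-base words, 10.5% are found in other genes. Dnajc3 (0.30, adjusted p = 0.0563) and Dnajb11 (0.34, adjusted p = 0.0655), which encode further BiP co-chaperones, were likewise separate and not called. These 4 genes lay near the threshold, and each was called in 4 to 10 of the 18 alternative analyses. The disulfide isomerases Pdia3 (0.18, adjusted p = 0.274) and Pdia6 (0.25, adjusted p = 0.320) had overlapping groups.

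Per library, the mean log2 CPM of the 13 folding genes, relative to the WT mean, was 0.12, -0.090 and -0.027 in WT replicates 1 to 3 and 0.48, 0.66 and 0.27 in KO replicates 1 to 3. KO replicate 2 was the highest and KO replicate 3 the lowest of the KO libraries, and both lay above every WT library. The summed fibroblast or stroma markers, from cells that also secrete much protein, were 156, 137 and 172 CPM in WT and 386, 307 and 359.8 CPM in KO. All 5 markers were present with more than 3 counts. KO replicate 2, with the highest folding mean, had the lowest stroma sum among the KO libraries. The part of these cells in the folding result was not tested.

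**Figure D3:**
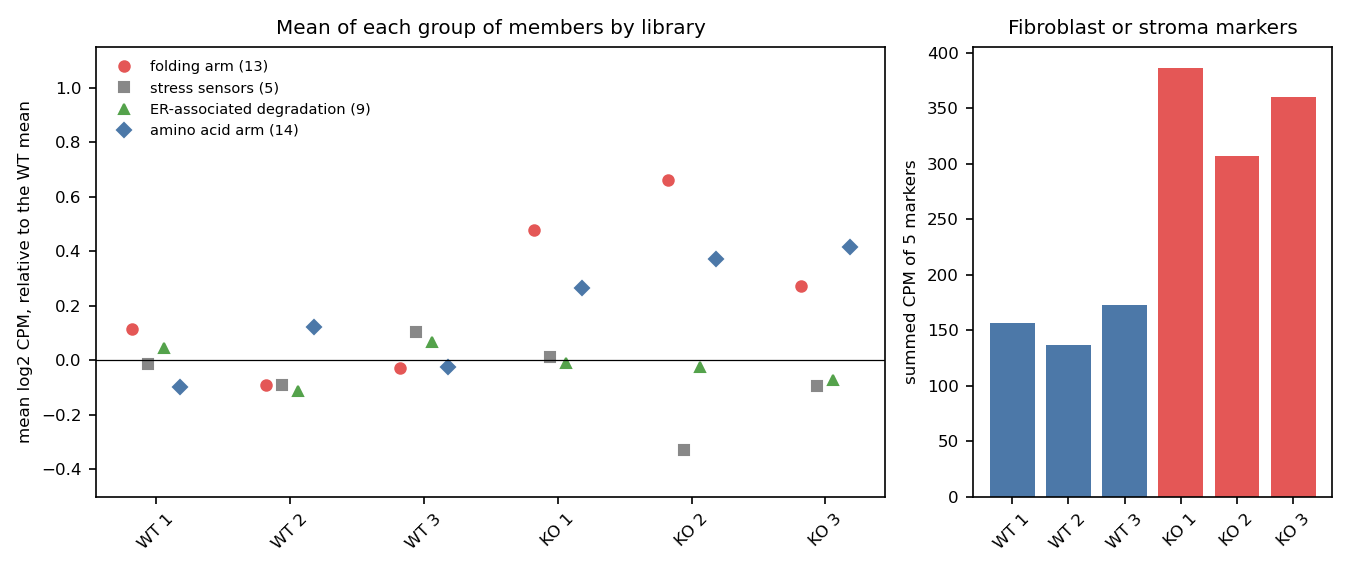
Left, mean log2 CPM of each group of genes in each library relative to the WT mean of that group. Right, summed CPM of the 5 fibroblast or stroma markers in the same libraries. The folding arm reaches 0.66 in KO replicate 2, the amino acid arm 0.42 in KO replicate 3, and the stroma sum 386 CPM in KO replicate 1.

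The 5 sensor genes gave no call (0 higher, 0 lower in edgeR, 2 of 5 at an unadjusted p under 0.05), with a median log2 fold change of -0.18. By other tools, Atf6 was called lower with DESeq2, and limma-voom called none. Xbp1, the transcription factor gene whose mRNA IRE1 splices, had 219, 218 and 206 CPM in WT and 252, 266 and 229 CPM in KO. Its groups did not overlap, and the gene was not called (0.20 ± 0.10, adjusted p = 0.230). Ern1, which encodes IRE1, had 41.9, 40.98 and 57.3 CPM in WT and 49.6, 29.5 and 47.0 CPM in KO. WT replicate 3 was the highest library and KO replicate 2 the lowest, and the groups overlapped (-0.18 ± 0.19, adjusted p = 0.576). The sign of the Ern1 difference turned without either of those libraries.

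Atf6 encodes the sensor that is itself cleaved into a transcription factor. It had 99.1, 104 and 99.97 CPM in WT and 88.4, 81.4 and 85.7 CPM in KO. Every KO library lay below every WT library, opposite in sign to the folding genes, and the gene was not called (-0.27 ± 0.09, adjusted p = 0.0753). Eif2ak3, which encodes PERK, had 31.2, 28.6 and 34.8 CPM in WT and 36.2, 26.2 and 36.4 CPM in KO, and the WT values lay between those of KO (0.034 ± 0.14, adjusted p = 0.908). Of its exon bases, 10.0% overlap a gene on the other strand. Eif2ak4, which encodes the amino acid sensor GCN2, had 9.49 to 11.0 CPM in WT and 5.97 to 9.68 CPM in KO (-0.42 ± 0.17, adjusted p = 0.134).

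Among the 9 genes of ER-associated degradation, Herpud1 was called higher and Svip lower, beside 8.44% and 6.21% of all tested genes. The median log2 fold change was 0.12. Herpud1 encodes an ER membrane protein that organises the degradation complex and is known to be strongly induced by ER stress. It had 97.3, 87.5 and 95.7 CPM in WT and 138, 142 and 124 CPM in KO. The groups did not overlap (0.51 ± 0.10, adjusted p = 0.00748).

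Svip encodes a small protein that binds the ATPase VCP and inhibits ER-associated degradation. It had 9.83, 11.8 and 8.33 CPM in WT and 2.47, 1.72 and 2.60 CPM in KO, 4.50-fold lower in KO. The groups lay far apart, and the log2 fold change of -2.17 ± 0.20 (adjusted p = 4.00e-05) was the only call below 0 among the 41 genes. On the log2(FPKM + 1) scale, which compresses low genes, the difference was -1.29. Svip lies on chromosome 7 at 51997161 to 52006018 (GRCm38), the chromosome that also carries Capns1 at 30186934 to 30198883. Within 1 Mb on either side of Svip, 2 other genes were tested. Gas2, the nearest of them, had a mean of 0.860 CPM in WT and 1.80 CPM in KO (log2 fold change 1.05, adjusted p = 0.0498). Fancf was not called (0.49, adjusted p = 0.235).

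Vcp, which encodes the ATPase that pulls proteins out of the ER membrane and is the partner of the Svip protein, had 355, 329 and 331 CPM in WT and 375, 367 and 344 CPM in KO. Its groups overlapped (0.076 ± 0.094, adjusted p = 0.657). Since 43.7% of its 32-base words occur in other genes, its count is uncertain. Of the glycoprotein-handling genes, Edem1 had 162 to 172 CPM in WT and 154 to 186 CPM in KO, and Edem2 had 90.6 to 108 CPM in WT and 109 to 118 CPM in KO. Neither was called. The ubiquitin ligase Syvn1 (0.23, adjusted p = 0.349) and its partner Sel1l (0.12, adjusted p = 0.556) had overlapping groups. Without WT replicate 3 and KO replicate 2, Syvn1 (0.48, adjusted p = 0.00276) and Edem2 (0.27, adjusted p = 0.0330) were called higher. Derl1, a channel component, had 190.2 to 222 CPM in WT and 191 to 242 CPM in KO. Its relative Derl3 stood at a mean of 1.04 CPM in WT and 1.74 CPM in KO, with separate groups and a wide error (0.73 ± 0.35, adjusted p = 0.195).

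Of the 14 genes of the amino acid arm, 6 were called, all higher, beside 8.44% of all tested genes. The median log2 fold change of the arm was 0.43. In 6 genes every KO library exceeded every WT library (18.2% of all tested genes). In 1, Mthfd2, every KO library lay below every WT library (15.5%). The called genes were Slc7a5, Psat1, Asns, Phgdh, Shmt2 and Ddit4.

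Atf4, the transcription factor gene at the head of this arm, had 126, 148 and 125 CPM in WT and 127, 131 and 115 CPM in KO. The groups overlapped, with KO replicate 3 below every WT library, and the log2 fold change was -0.12 ± 0.11 (adjusted p = 0.533, with 1.96 SE each way spanning -0.33 to 0.094). ATF4 is known to be controlled largely at translation, which was not measured here. Ddit3, which encodes the stress factor CHOP, had 18.8, 19.2 and 14.8 CPM in WT and 15.9, 19.1 and 16.2 CPM in KO, with overlapping groups (-0.064 ± 0.14, adjusted p = 0.820). Of its exon bases, 9.10% overlap genes on the other strand. Ppp1r15a, which encodes the GADD34 subunit that reverses eIF2 phosphorylation, had 29.5, 31.6 and 33.9 CPM in WT and 32.4, 25.6 and 29.8 CPM in KO. It too was not called (-0.14 ± 0.12, adjusted p = 0.492).

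Trib3, a pseudokinase gene induced by ATF4 and CHOP, was low, at 0.894, 1.41 and 0.929 CPM in WT and 1.14, 1.80 and 1.59 CPM in KO. Its groups overlapped, and the error was wide (0.46 ± 0.34, adjusted p = 0.408). Chac1, a glutathione-degrading enzyme gene of the same programme, had 0.587 to 1.01 CPM in WT and 0.568 to 2.08 CPM in KO, and KO replicate 3 alone lay above the WT range. Its log2 fold change of 0.48 ± 0.49 (adjusted p = 0.576) turned to -0.24 without that library. Sesn2, which encodes a leucine sensor upstream of mTORC1, was not called (-0.13, adjusted p = 0.506).

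Ddit4, which encodes the mTORC1 inhibitor REDD1, had 32.7, 39.8 and 31.4 CPM in WT and 45.7, 43.6 and 50.5 CPM in KO. The groups did not overlap, and WT replicate 2 came nearest to the KO libraries (0.41 ± 0.12, adjusted p = 0.0365). Its call was lost without WT replicate 1, WT replicate 3, KO replicate 1 or KO replicate 3, with an adjusted p of up to 0.148 over all alternatives.

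Slc7a5 and Slc3a2 encode the light and heavy chains of the leucine transporter LAT1. Slc7a5, on chromosome 8 at 121881146 to 121907686, had 8.56, 9.64 and 12.5 CPM in WT and 23.5, 19.6 and 24.0 CPM in KO. Each KO library was above all WT libraries, and the gene was 2.15-fold higher (1.10 ± 0.15, adjusted p = 7.12e-04). Slc3a2, whose product also pairs with other light chains, had 251, 239 and 259 CPM in WT and 278, 303 and 256 CPM in KO. Its groups overlapped and it was not called (0.14 ± 0.10, adjusted p = 0.427).

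Both listed serine synthesis genes were higher in KO. Phgdh encodes the first enzyme of the pathway, and Psat1 the aminotransferase that follows it. Psat1, on chromosome 19 at 15905123 to 15925059, had 12.9, 17.4 and 13.1 CPM in WT and 29.5, 34.2 and 28.6 CPM in KO. The groups were far apart, and the gene was 2.10-fold higher (1.07 ± 0.14, adjusted p = 5.73e-04). Phgdh had 18.3, 20.3 and 18.7 CPM in WT and 28.8, 30.9 and 35.1 CPM in KO, again without overlap (0.70 ± 0.11, adjusted p = 0.00195). Its count is uncertain, since 55.4% of its 32-base words occur in other genes.

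Shmt2, the mitochondrial enzyme gene that takes serine into one-carbon units, had 36.2, 38.3 and 43.7 CPM in WT and 63.7, 57.6 and 59.6 CPM in KO. The groups did not overlap (0.59 ± 0.11, adjusted p = 0.00366). Mthfd2, whose enzyme acts after SHMT2 in the same mitochondrial folate pathway, had 35.2 to 43.3 CPM in WT and 33.3 to 33.7 CPM in KO. Every KO library lay below every WT library, and the gene was not called (-0.25 ± 0.11, adjusted p = 0.161). Asns, which encodes asparagine synthetase and carries the CARE printed above, had 8.91, 12.6 and 11.1 CPM in WT and 19.6, 19.7 and 18.4 CPM in KO. Its groups did not overlap (0.80 ± 0.14, adjusted p = 0.00313).

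**Figure D4:**
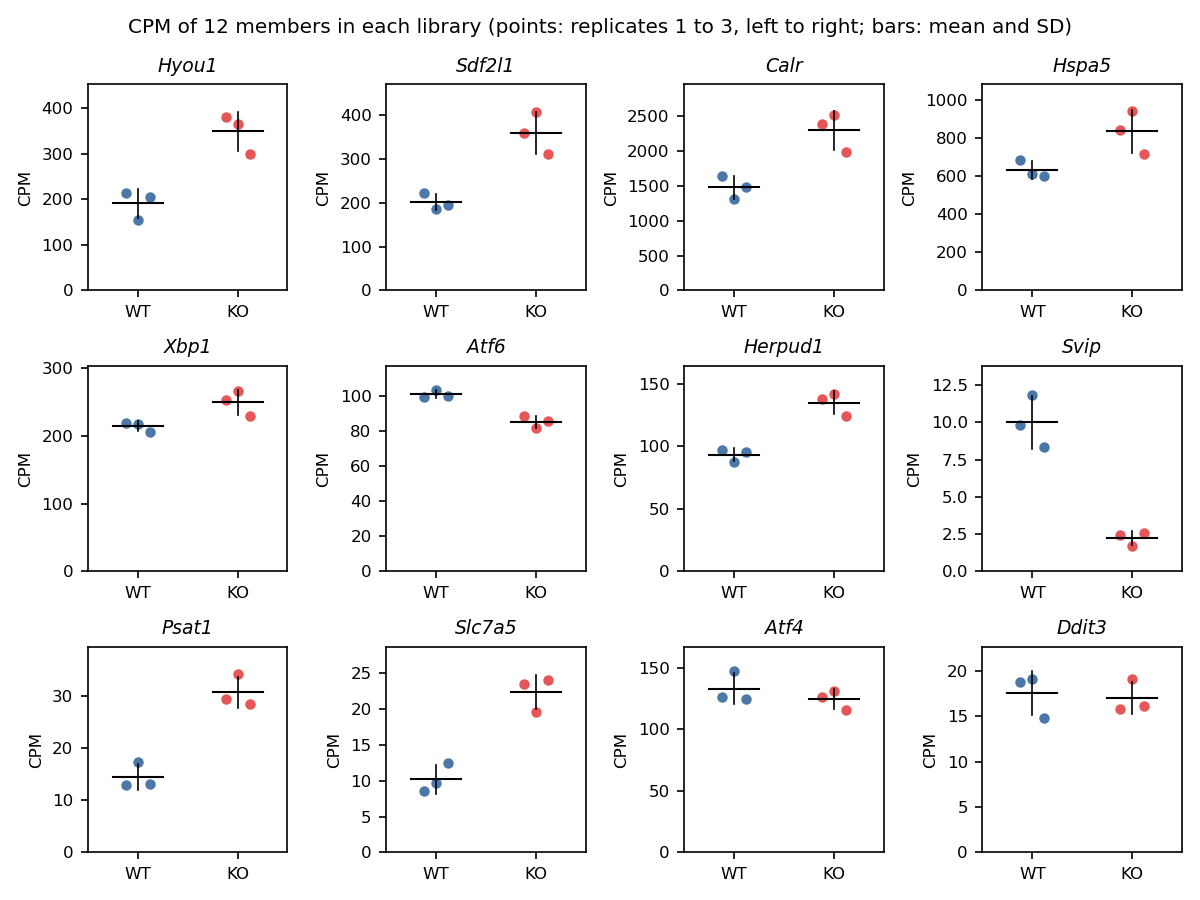
CPM of 12 genes in each library, with replicates 1 to 3 from left to right, horizontal bars at the group mean and vertical bars of 1 SD (n = 3). Hyou1, Sdf2l1, Calr, Herpud1, Psat1 and Slc7a5 are higher in every KO library and Svip is lower in every KO library, whereas Atf4 and Ddit3 overlap between groups. Hspa5, Xbp1 and Atf6 do not overlap and were not called.

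The folding and amino acid arms were set against each other within each library. The mean log2 CPM of the amino acid arm, relative to the WT mean, was -0.097, 0.12 and -0.024 in WT replicates 1 to 3 and 0.27, 0.37 and 0.42 in KO replicates 1 to 3. KO replicate 3 had the highest amino acid mean and the lowest folding mean among the KO libraries. Its amino acid mean includes the low gene Chac1, at 2.08 CPM there and 0.568 and 0.779 CPM in KO replicates 1 and 2. How far this order rests on Chac1 was not tested. Folding minus amino acid mean log2 CPM was 3.32 ± 0.21 in WT and 3.44 ± 0.23 in KO (SD, n = 3 each). The difference of 0.12 was smaller than the pooled SD of 0.222 over all 6 libraries. This rested on single libraries, since the difference was 0.251 without KO replicate 3, 0.227 without WT replicate 1 and 0.014 without WT replicate 2. The sensor mean was -0.015, -0.089 and 0.10 in WT and 0.011, -0.33 and -0.094 in KO, and the mean of the degradation genes was 0.045, -0.11 and 0.066 in WT and -0.0088, -0.025 and -0.073 in KO. Both of these overlapped between genotypes. The degradation mean includes Svip, whose log2 fold change was -2.17, whereas 6 of the 9 degradation genes had a value above 0. How far the overlap rests on Svip was not tested.

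Levels between genes were compared on deposited FPKM, which divides counts by gene length. In WT, Calr was highest at 763 ± 83.7 FPKM (SD, n = 3), above Hspa5 at 251 ± 18.3, whose range overlapped that of Pdia3 at 246 ± 9.84. Sdf2l1 (182 ± 17.4), Manf (182 ± 21.8) and Pdia6 (174 ± 26.4) followed and overlapped one another. The highest genes outside the folding arm were Vcp at 102 ± 4.41, Xbp1 at 96.5 ± 3.27 and Atf4 at 92.0 ± 8.81, and the last 2 overlapped. The called amino acid genes were low in WT, with Ddit4 at 20.6 ± 2.69, Shmt2 at 17.1 ± 1.68, Phgdh at 10.2 ± 0.572, Psat1 at 5.80 ± 1.01, Asns at 4.59 ± 0.779 and Slc7a5 at 2.91 ± 0.574. Svip stood at 3.26 ± 0.573 FPKM in WT and 0.739 ± 0.156 FPKM in KO. The lowest were Eif2ak4 (1.87 ± 0.151), Derl3 (0.772 ± 0.230), Trib3 (0.526 ± 0.142) and Chac1 (0.511 ± 0.135), and the last 3 overlapped.

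**Figure D5:**
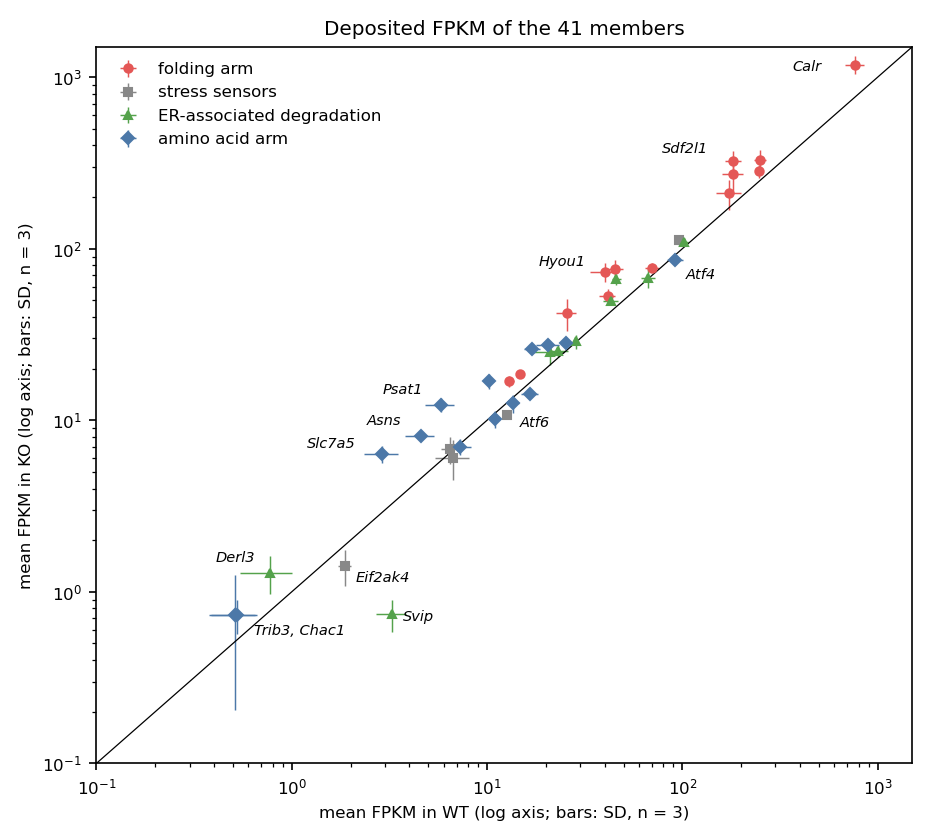
Mean deposited FPKM of the 41 genes in KO against WT, both on log axes, with bars of 1 SD (n = 3 per group) and the line of equal levels. Calr is the highest in both groups. Svip is the point farthest below the line, at 3.26 in WT and 0.739 in KO, and Slc7a5 and Psat1 lie above it.

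Further genes of the same pathways were taken from 6 lists that did not hold the 41 genes. Of 161 genes in the tables, 157 were tested, 21 were called higher and 3 lower, again beside 8.44% and 6.21% of all tested genes. These 24 calls became 45 without WT replicate 3 and KO replicate 2, where the share of all tested genes called went from 14.6% to 26%. They became 12 without WT replicate 2 (9.84% of all tested genes), 13 without WT replicate 1 (9.1%) and 14 without KO replicate 1 (8.99%). Of 29 other ER folding genes, 4 were called higher and 1 lower, with a median log2 fold change of 0.14. Hsp90b1, which encodes the ER chaperone GRP94, had 505, 423 and 432 CPM in WT and 633, 691 and 602 CPM in KO (0.48 ± 0.11, adjusted p = 0.0123), with 21.6% of its exon bases overlapping other genes. The prolyl isomerase gene Fkbp11 (1.83 ± 0.30, adjusted p = 0.00190) and the isomerase gene Pdia5 (0.63 ± 0.15, adjusted p = 0.0163) were also higher. Pdia5 was not called without WT replicate 1 (adjusted p = 0.0686) or WT replicate 2 (adjusted p = 0.0575). Ero1b, an oxidase that recharges disulfide isomerases, was lower (-0.66 ± 0.13, adjusted p = 0.00486).

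Of 32 genes of ER translocation and N-glycosylation, 7 were called, all higher, beside 8.44% of all tested genes. The list median was 0.21. With 1 library left out, 3 to 7 were called, where 8.99% to 14.1% of all tested genes were called. Stt3b, a catalytic subunit of oligosaccharyltransferase, which attaches glycans to asparagine, had 108, 106 and 109 CPM in WT and 272, 259 and 265 CPM in KO. Its groups were far apart and it was 2.43-fold higher (1.28 ± 0.09, adjusted p = 5.63e-06). The translocon subunit gene Sec61g (0.57 ± 0.12, adjusted p = 0.0103) and the translocon-associated gene Ssr4 (0.47 ± 0.11, adjusted p = 0.0142) were also higher. The call of Ssr4 was lost without WT replicate 1 (adjusted p = 0.0606) or KO replicate 3 (adjusted p = 0.0553). Srp54a was called higher as well (2.67 ± 0.53, adjusted p = 0.00621), at 0.0505 to 0.404 CPM in WT and 1.38 to 2.13 CPM in KO. It shares 72.4% of its 32-base words with other genes, which makes this value uncertain. Its difference was 0.39 when taken as log2(FPKM + 1).

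Among 29 other genes of ER-associated degradation, 1 was called, and it was lower, beside 6.21% of all tested genes. The list median was -0.028. The called gene was the ubiquitin ligase gene Rnf139 (-0.46 ± 0.10, adjusted p = 0.0123). Its call was lost without WT replicate 2 (adjusted p = 0.0581) or KO replicate 1 (adjusted p = 0.0830), the highest over all alternatives. Of 19 other sensors and regulators, 2 were called, both higher, beside 8.44% of all tested genes, with a list median of 0.015. They were Creb3l2, an ER-anchored transcription factor gene (0.60 ± 0.15, adjusted p = 0.0200), and Wfs1, an ER membrane protein gene (0.58 ± 0.16, adjusted p = 0.0318). Each of them kept its call in 2 of the 6 analyses without 1 library.

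Of 28 tested genes among 31 others of the ATF4 and amino acid response, 8 were called higher and 1 lower. Among all tested genes the shares were 8.44% and 6.21%, and the list median was 0.25. With 1 library left out, 5 to 10 were called, where 8.99% to 14.1% of all tested genes were called. Each higher call not named here was lost without at least 1 of the libraries. Gdf15, a secreted stress cytokine gene, had 0.807, 1.77 and 1.37 CPM in WT and 5.25, 6.10 and 7.69 CPM in KO. Its groups did not overlap (2.24 ± 0.27, adjusted p = 2.97e-04). The death receptor gene Tnfrsf10b (1.44 ± 0.21, adjusted p = 0.00105) and the cytosolic serine hydroxymethyltransferase gene Shmt1 (1.17 ± 0.21, adjusted p = 0.00337) were higher. On the log2(FPKM + 1) scale these 3 genes stood at 1.37, 0.67 and 0.70. Bbc3, which encodes the apoptosis regulator PUMA, was lower (-0.74 ± 0.14, adjusted p = 0.00426). None of the 20 aminoacyl-tRNA synthetase genes, which charge tRNAs and include known ATF4 targets, was called by edgeR or limma-voom, whereas DESeq2 called 2, and edgeR called 5 without WT replicate 3 and KO replicate 2, where 26% of all tested genes were called. Of these genes, 3 had an unadjusted p under 0.05 in edgeR, and the median was 0.067.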

How the data were processed

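Total RNA was made into stranded libraries, per the labels' protocols. The authors deposited raw read counts and FPKM per gene for 3 KO and 3 WT libraries. Per the submitters' processing notes, fastp, HISAT2, HTSeq and mm10 were used, with versions and strand setting not given in the sources used here. Deposited FPKM equalled count over gene length over column total to within 1% in 99.99% of the entries with 10 counts or more.

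The KO and WT counts were compared in R 4.3.3 by the quasi-likelihood F test of edgeR 4.0.16, after filterByExpr and TMM scaling, with Benjamini-Hochberg adjustment over 12219 genes. An adjusted p under 0.05 is a call. The SE is the log2 fold change divided by the square root of F. CPM uses the column total, and means of log2 CPM add a prior count of 0.5. The precision of low genes is limited by depth, and a count of 0 allows up to 3 counts (0.0733 to 0.0919 CPM), for counting error only. Alternatives were other scalings and filters, DESeq2 1.42.0, limma-voom and limma-trend (limma 3.58.1) on log2(FPKM + 1) and log2(FPKM + 0.1), a replicate block, removal of a gene length trend, and leaving out each library or WT replicate 3 and KO replicate 2 together. The fit was tested on simulated data.

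The 41 genes and all lists were chosen with earlier results of these data known. CPM per library is given for called genes and for Hspa5, Dnajb9, Xbp1, Ern1, Atf6, Eif2ak3, Vcp, Atf4, Ddit3, Ppp1r15a, Trib3 and Slc3a2. Of each further list, up to 4 called genes of smallest adjusted p are named. Sequence sharing is the share of a gene's 32-base words found in GENCODE vM21 transcripts of other genes. T or NK cell markers summed to 1.72 to 2.35 CPM in WT and 0.296 to 0.797 CPM in KO. Nearly all of this was Nkg7, and Cd3d and Cd3g had at most 3 counts in every library. Dendritic cell markers summed to 0.807 to 1.61 CPM and 0.887 to 1.36 CPM, mast cell or basophil markers to 1.35 to 1.96 CPM and 1.62 to 3.66 CPM, and erythroid markers to 0.709 to 2.22 CPM and 0.823 to 1.35 CPM, in the same order. A further marker list is not reported here.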

Additional observations from a re-analysis of the deposited data

How the results depend on the processing

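Capns1 stayed called lower in every alternative, with log2 fold changes of -5.77 to -5.67 when 1 library was left out. Pdia4, Calr, Sdf2l1, Hyou1, Herpud1, Svip, Asns, Psat1, Phgdh, Shmt2 and Slc7a5 kept their call and direction in all 18 alternatives, and Creld2 in all but limma-trend on log2(FPKM + 1) (adjusted p = 0.0581, over a range of 4.31e-04 to 0.0581). Leaving out 1 library gave 12 to 14 calls among the 41 genes, against 14 with all 6 libraries. Over all tested genes 8.99% to 14.1% were called, against 14.6%. Of the calls among the 41 genes, 11 to 13 were higher, with 5 to 7 in the folding arm and 5 to 6 in the amino acid arm.

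The replicate block, with replicate number as a term, gave 20 calls among the 41 genes, 10 higher in the folding arm, 3 lower, and 42 in the 6 further lists. With the block, 20.7% of all tested genes were called (11.1% higher and 9.53% lower). No label says whether the numbers pair the libraries. Deviations of same-numbered WT and KO libraries correlated at -0.098, 0.23 and 0.18, and not every library correlated best with its own number. With 3 libraries per group, such correlations depend on one another and cannot decide whether the numbers pair them. The call count in the folding arm was also 10 with DESeq2 and with the gene length trend removed. These called 10.5% and 9.84% of all tested genes higher. With DESeq2, 2 of the 41 genes were lower, beside 7.87% of all tested genes. With WT replicate 3 and KO replicate 2 left out, 2 of the 41 genes were lower, beside 12.3% of all tested genes. The further lists then had 45 calls, against 24, where 26% of all tested genes were called. With 1 library left out, the further lists had 12 to 26 calls, beside 8.99% to 14.1% of all tested genes. The causes were not tested. Over all genes tested, 1790 were called, against 2526 with the block, 3186 without both libraries, and 1119 to 1741 with 1 library left out.

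The folding minus amino acid difference was 0.014 to 0.25 with 1 library left out. DESeq2, limma-voom, the block and other scalings have no value for it, since scaling cancels within a library. The TGACGTGG core widened to ACGTGG matched 6 listed genes, against 1, and CARE narrowed to TGATGCAA matched 2, against 4.

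Among genes without a call, the sign of Ern1 turned when WT replicate 3 (0.0052), KO replicate 2 (0.013) or both (0.18) were left out, with -0.30 to 0.013 over single libraries, and that of Pdia6 when both were (-0.049). For Eif2ak3 (-0.023 to 0.17) it turned on leaving out WT replicate 2 (-0.022) or either of KO replicates 1 (-0.017) and 3 (-0.023). For Ddit3 (-0.17 to 0.010) it turned without WT replicate 2 (0.010) or KO replicate 1 (0.0074), and for Chac1 (-0.24 to 0.82) without KO replicate 3 (-0.24). Derl3, Trib3 and Chac1 rest on 20 to 83 counts per library.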
